A study of Homo sapiens with 12 samples.

Results

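The 33 genes described here make cholesterol and fatty acids, or regulate that synthesis, under the SREBP transcription factors. They were chosen by gene symbol, and each was read on 1 Affymetrix probe set, the brightest of those whose annotation names that gene alone. By this rule 30 of the 33 had a value, out of 19775 genes on the array, and all 30 passed a filter on dim signals that 13067 genes passed. MVD passed it only through the mutant line. CYP51A1 and FADS1 were represented by 2 and 3 probe sets that name several genes, FDFT1 by no probe set that names it alone, and these 3 genes were not analysed here. The 30 comprised 7 genes of the mevalonate steps, 9 of the steps from squalene to cholesterol, 4 regulators, 2 cholesterol transport genes and 8 fatty acid and lipid genes.

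The cells were stable lines of HEK, an immortalised human embryonic kidney line, each carrying a TRPM7 transgene that tetracycline switches on. TRPM7 is a cation channel fused to a protein kinase. In the WT line it was the wild-type channel, and in the other line a mutant without the kinase domain (TRPM7DKD), which the series design names nonfunctional and uses as the control for the inducer. The 4 groups of 3 arrays were WT with tetracycline, WT untreated, mutant with tetracycline and mutant untreated. Tetracycline was given as 1 ug, with no volume stated, for 72 hours, and all groups grew in serum with 5 ug/mL blasticidin. The labels do not say whether a line is 1 clone or whether replicates were separate cultures, so p-values measure the spread between these samples, which may be technical. The series design states that excess channel harms HEK cells.

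Cholesterol is built from acetyl-CoA through mevalonate, the isoprenoids and squalene, which is closed into lanosterol and then trimmed to cholesterol. SREBP proteins wait in the membrane of the endoplasmic reticulum, bound to the escort SCAP. When sterols are scarce SCAP carries them to the Golgi, where proteases free the part that enters the nucleus, and when sterols are plentiful INSIG proteins hold SCAP back. SREBF2 encodes the form best known for cholesterol genes and SREBF1 the forms best known for fatty acid genes, and INSIG1 is itself an SREBP target.

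Values are MAS5 signals, a linear brightness that the authors scaled to the same trimmed mean on each array, and changes are log2 differences from limma fitted over all 12 arrays. A gene is said to have risen or fallen where its Benjamini-Hochberg adjusted p was under 0.05. The arrays of the WT line scattered more than those of the mutant line, and the fit shares 1 spread. The median SD of the 30 genes, on the log2 scale, was 0.298 in WT with tetracycline, 0.412 in WT untreated, 0.141 in mutant with tetracycline and 0.117 in mutant untreated. The actin controls, whose 3' over 5' log2 ratio is a sign of RNA integrity, gave 1.05 ± 0.265 in WT and 0.259 ± 0.026 in mutant arrays (SD, n = 6 each). The same ratio of the GAPDH controls was 0.083 ± 0.063 in WT and 0.075 ± 0.036 in mutant arrays. All 8 HEK markers were above the filter, against 0 of 4 hepatocyte, 1 of 3 adipocyte, 1 of 4 blood and 2 of 5 fibroblast and endothelial markers. The adipocyte marker, PLIN1, was above it only in WT with tetracycline. The brightest TRPM7 probe set changed by -0.85 ± 0.30 (SE, adjusted p = 0.0643) with tetracycline in the WT line and by -0.20 ± 0.30 (adjusted p = 1) in the mutant line, and a dimmer set changed by -2.00 ± 0.63 (adjusted p = 0.0411) in the WT line and by -1.24 ± 0.63 (adjusted p = 1) in the mutant line, without overlap in either. The other tested set gave 0.11 (adjusted p = 0.915) in the WT line and -0.80 (adjusted p = 1) in the mutant line. On these tested sets TRPM7 was thus not measurably higher where the labels say that the channel was induced, and every direction with tetracycline rests on the labels. In bulk RNA, fewer cells of a kind and less RNA per cell cannot be told apart.

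With tetracycline, 6 of the 30 genes fell and 0 rose in the WT line. They were LSS and NSDHL of the late cholesterol steps, the lipoprotein receptor gene SCARB1, and ACLY, SCD and ELOVL6 of fatty acid synthesis. Of all genes tested 8.57% fell and 9.41% rose in this comparison. The median change of the 30 genes was -0.41, against 0.03 for all genes tested, and 27 of the 30 were on the lower side. LSS was lowest, at 34.4% of its untreated level on its brightest probe set. The adipocyte markers had a summed signal of 224 to 355 in WT with tetracycline and 24.3 to 133 in WT untreated, while their members ADIPOQ and FABP4 stayed below the filter. The brightest of them, PLIN1, had mean log2 signals of 7.6 in WT with tetracycline and 5.38 in WT untreated. PLIN1 passed the filter only through WT with tetracycline, so it had to be higher there, and the sum says little of adipocyte markers as a list. The fibroblast and endothelial markers summed to 1358 to 1436 in WT with tetracycline and 714 to 1105 in WT untreated. Of these only COL1A1 had a higher mean with tetracycline, with log2 signals of 10.23 against 9.35. The means of COL1A2 (3.83 against 4.79), DCN (5.46 against 5.67), PECAM1 (6.58 against 6.61) and VWF (4.09 against 4.83) were lower. The part of these cell markers in the changes was not tested.

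LSS, lanosterol synthase, closes the squalene epoxide into the first sterol. Its brightest probe set read 1297, 681 and 724 in WT with tetracycline, against 1916, 2326 and 3522 in WT untreated. It read 4338, 4457 and 4594 in mutant with tetracycline, against 4870, 5171 and 4790 in mutant untreated. The WT groups did not overlap, and both lay below every mutant array. The WT change was -1.54 ± 0.23 (SE, n = 3 against 3, adjusted p = 0.000779), and the mutant change was -0.15 ± 0.23 (adjusted p = 1). Another LSS probe set rose with tetracycline in the WT line (1.39 ± 0.21, adjusted p = 0.000893), and with the mean of its sets LSS did not pass (-0.23), so the fall holds for the brightest set only.

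NSDHL, a sterol dehydrogenase that helps to remove methyl groups from the sterol ring, read 1323, 1021 and 808 in WT with tetracycline, against 1583, 3037 and 2792 in WT untreated. The groups did not overlap, but WT untreated replicate 1 lay close to the treated arrays. NSDHL fell by 1.21 ± 0.23 (adjusted p = 0.00347), to 43.3% of untreated. In the mutant line it read 4211, 3354 and 3037 with tetracycline, against 3957, 3315 and 3148 untreated. Those groups overlapped.

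SCARB1, a receptor that takes up cholesterol from high-density lipoprotein, read 1294, 1010 and 994 in WT with tetracycline, against 2110, 2365 and 3140 in WT untreated. It fell by 1.20 ± 0.17 (adjusted p = 0.000464), to 43.6% of untreated. Its mutant arrays read 2598, 3231 and 2904 with tetracycline, against 2706, 3162 and 2800 untreated, and overlapped the untreated WT arrays. STARD4, which carries cholesterol between membranes, had a change of -0.50 in the WT line and did not pass (adjusted p = 0.0692).

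Of the 8 fatty acid and lipid genes 3 fell, against 8.57% of all genes, and their median change was -0.20. ACLY, which makes cytosolic acetyl-CoA from citrate, read 8496, 6655 and 7445 in WT with tetracycline, against 10800, 10939 and 13965 in WT untreated. Its change was -0.66 ± 0.13 (adjusted p = 0.0037), and its mutant arrays ranged from 12238 to 14854 with tetracycline and from 11848 to 13584 untreated. SCD, the desaturase that makes oleate, read 4872, 3644 and 6406 in WT with tetracycline, against 6482, 9002 and 10732 in WT untreated. The gap between these WT groups was narrow, and the change was -0.82 ± 0.19 (adjusted p = 0.011). SCD ranged from 9884 to 11938 in mutant with tetracycline and from 11794 to 13791 in mutant untreated, which overlapped.

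ELOVL6, an elongase of long-chain fatty acids, read 1812, 1117 and 1021 in WT with tetracycline, against 2515, 1971 and 2241 in WT untreated. Its change was -0.81 ± 0.22 (adjusted p = 0.0215). Unlike LSS it was not the lower in WT cells before induction, and its mutant arrays ranged from 1245 to 1860 with tetracycline and from 1284 to 1813 untreated. The other 5 genes of this group, which were ACSS2, ACACA, FASN, FADS2 and LPIN1, had WT changes between -0.21 and -0.01 and did not pass. FASN, the fatty acid synthase, was among them, with 3387, 2582 and 3168 in WT with tetracycline and 2812, 3390 and 4454 in WT untreated.

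**Figure D1:**
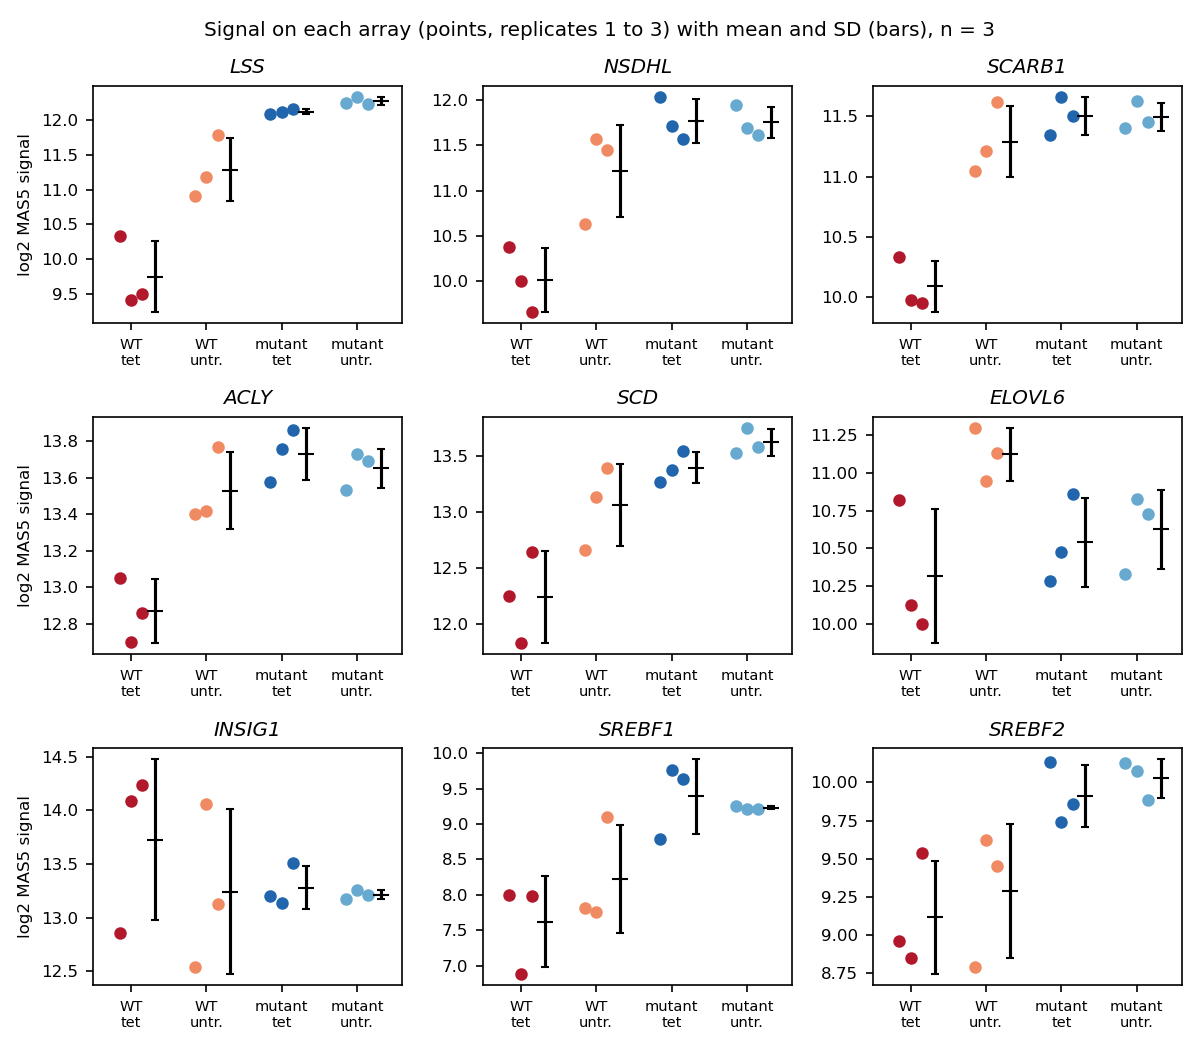
The plot gives the log2 MAS5 signal (vertical axes, scaled per gene) of 9 genes on each array of WT with tetracycline, WT untreated, mutant with tetracycline and mutant untreated, with bars for the mean and SD of 3 arrays. The 6 genes of the upper rows were lower in WT with tetracycline than in WT untreated with no overlap, while INSIG1, SREBF1 and SREBF2 overlapped between those groups.

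The 16 sterol synthesis genes had a median WT change of -0.45, and 2 of them fell, a share close to the 8.57% of all genes. Among the 7 genes of the mevalonate steps 0 passed, with a median of -0.24, and among the 9 genes from squalene to cholesterol 2 passed, with a median of -0.60. The WT groups did not overlap for 8 of the 30 genes, all lower with tetracycline, against 12.3% of all genes on the lower side. These 8 were the 6 that fell with PMVK and DHCR7. PMVK, phosphomevalonate kinase, read 900, 814 and 880 in WT with tetracycline, against 1135, 1002 and 1386 in WT untreated (-0.43, adjusted p = 0.0589). DHCR7, which makes cholesterol in its last step, read 1056, 743 and 1271 in WT with tetracycline, against 1298, 1314 and 2024 in WT untreated (-0.60, adjusted p = 0.0563). IDI1, the isomerase of the isoprenoid unit, was on the higher side with 9451, 33648 and 33283 in WT with tetracycline, against 8165, 26913 and 17301 in WT untreated. The change of IDI1 was 0.49 ± 0.42 (adjusted p = 0.453), and replicate 1 was low in both WT groups.

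The regulators gave no call in this comparison. SREBF1 read 255, 118 and 253 in WT with tetracycline, against 225, 216 and 550 in WT untreated, a change of -0.60 ± 0.37 (adjusted p = 0.289). SREBF2 read 498, 460 and 744 in WT with tetracycline, against 442, 789 and 700 in WT untreated, a change of -0.17 ± 0.23 (adjusted p = 0.647). In both genes the WT groups overlapped. SCAP read 1139, 1003 and 876 in WT with tetracycline, against 1122, 1079 and 1165 in WT untreated (-0.16 ± 0.14, adjusted p = 0.448). INSIG1 read 7447, 17413 and 19230 in WT with tetracycline, against 5942, 17078 and 8952 in WT untreated (0.49 ± 0.34, adjusted p = 0.353). As in IDI1, INSIG1 was lowest on replicate 1 of both WT groups. This was so for 10 of the 30 genes (33.3%), against 18.6% of all genes tested, and in the mutant line for 10 of the 30 (33.3%), against 15.8%. Replicate 1 also had the highest actin and GAPDH 3' over 5' ratios within each group. Its GAPDH log2 ratio was 0.154 in WT with tetracycline and 0.168 in WT untreated. In the mutant line it was 0.101 with tetracycline and 0.135 untreated, and the other arrays lay between 0.015 and 0.071. The part of array quality in this share was not tested.

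The count of 6 turned on single arrays. It was 13 without WT tetracycline replicate 1, of which 2 rose, IDI1 and INSIG1, and 11 without WT untreated replicate 1. Without WT tetracycline replicate 2 or WT untreated replicate 3 it was 4, and SCD and ELOVL6 were lost. With only the 6 WT arrays in the fit it was also 4, namely LSS, NSDHL, SCARB1 and ACLY. Without replicate 3 of each group only SCARB1 passed, a count of 1. The median of the 30 genes, after centring each gene on its mean over arrays, was -0.505, -0.473 and -0.419 on the WT arrays with tetracycline, against -0.459, 0.069 and 0.158 on the untreated ones. WT untreated replicate 1 thus lay with the treated arrays by this measure. The actin 3' over 5' log2 ratio also varied within the WT line. It was 1.362, 0.903 and 1.076 on replicates 1 to 3 with tetracycline, and 1.289, 1.041 and 0.632 untreated. The part of RNA integrity in the WT changes was not tested. The 12 arrays held no 2 alike, with a highest correlation of 0.9306.

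Promoter windows are shown for 4 of the genes that fell and for 2 regulators, to set genes with unlike changes side by side. Each is the 250 bases before the start of the gene on its own strand, from RefSeq on GRCh38.p14. LSS lies at chr21:46228775-46229024 on the minus strand, NSDHL at chrX:152830813-152831062 on the plus strand and SCD at chr10:100346983-100347232 on the plus strand. ELOVL6 lies at chr4:110198616-110198865 on the minus strand, INSIG1 at chr7:155297628-155297877 on the plus strand and SREBF2 at chr22:41832855-41833104 on the plus strand. Capitals mark CCAAT or its complement ATTGG, the motif of the factor NF-Y, the E-box CACGTG, and TCACNCCAC, a short form of the sterol regulatory element.
LSS: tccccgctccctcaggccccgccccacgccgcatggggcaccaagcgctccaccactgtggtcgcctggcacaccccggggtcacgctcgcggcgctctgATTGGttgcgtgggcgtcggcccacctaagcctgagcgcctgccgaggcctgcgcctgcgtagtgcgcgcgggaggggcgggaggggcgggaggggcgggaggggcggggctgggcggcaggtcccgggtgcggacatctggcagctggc
NSDHL: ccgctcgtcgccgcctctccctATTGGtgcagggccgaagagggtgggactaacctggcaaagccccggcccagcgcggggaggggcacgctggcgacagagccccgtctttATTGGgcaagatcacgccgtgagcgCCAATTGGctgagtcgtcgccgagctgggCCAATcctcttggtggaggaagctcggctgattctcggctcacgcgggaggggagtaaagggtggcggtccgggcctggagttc
SCD: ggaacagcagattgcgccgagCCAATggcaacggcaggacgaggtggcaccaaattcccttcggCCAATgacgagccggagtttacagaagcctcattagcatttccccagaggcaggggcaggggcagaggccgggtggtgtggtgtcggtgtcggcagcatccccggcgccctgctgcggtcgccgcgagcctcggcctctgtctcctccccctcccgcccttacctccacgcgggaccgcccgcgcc
ELOVL6: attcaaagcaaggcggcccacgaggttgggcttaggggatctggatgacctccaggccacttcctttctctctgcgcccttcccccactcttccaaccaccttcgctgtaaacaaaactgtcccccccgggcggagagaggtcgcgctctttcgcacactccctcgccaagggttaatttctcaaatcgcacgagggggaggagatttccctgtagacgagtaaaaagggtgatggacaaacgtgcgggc
INSIG1: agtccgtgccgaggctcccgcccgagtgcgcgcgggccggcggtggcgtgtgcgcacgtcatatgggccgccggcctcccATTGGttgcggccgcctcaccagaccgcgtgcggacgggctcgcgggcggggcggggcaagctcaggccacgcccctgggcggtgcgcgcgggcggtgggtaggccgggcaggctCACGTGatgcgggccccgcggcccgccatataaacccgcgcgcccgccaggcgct
SREBF2: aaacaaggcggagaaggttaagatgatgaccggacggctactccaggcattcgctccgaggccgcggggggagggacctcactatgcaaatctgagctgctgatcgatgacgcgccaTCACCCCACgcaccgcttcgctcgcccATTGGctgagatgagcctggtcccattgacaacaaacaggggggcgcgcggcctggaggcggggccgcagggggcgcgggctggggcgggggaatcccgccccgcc

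NSDHL held 5 CCAAT matches, 2 of which overlap as CCAATTGG, SCD held 2, LSS, INSIG1 and SREBF2 held 1 each and ELOVL6 held 0. The sterol element was matched in SREBF2 alone among the 26 genes that had a window, in 1 of their 38 windows (2.63%), against 0.883% of all 35116 windows. CCAAT on either strand was in 24 of the 38 (63.2%), against 32% of all windows. The GC box GGGCGG, bound by SP1 and left in lower case above, was in 33 of the 38 (86.8%), against 42.6% of all, and LSS alone held 6. CACGTG was in 4 (10.5%), against 6.34% of all. All windows include genes that were not tested here, while the 26 genes had all passed the filter, so the sets compared are unlike. Shares among the windows of tested genes were not worked out. A match describes letters in a window and does not show a bound site. SQLE, SCARB1, FASN and ACAT2 had no window here.

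In the mutant line 0 of the 30 genes passed with tetracycline, as did 0% of all genes tested. At an unadjusted p under 0.05 there were 0 of the 30 too, and 620 of 29553 probe sets. The changes of the 30 genes ran from -0.23 in SCD to 0.23 in FASN with a median of -0.02, against 0.02 for all genes. The groups did not overlap for 2 of the 30, PMVK and LSS, both lower with tetracycline on their brightest set, against 4.83% of all genes. Another LSS probe set was higher with tetracycline in the mutant line, also without overlap (0.37), and the remaining LSS set gave -0.06. PMVK read 1240, 1328 and 1341 in mutant with tetracycline, against 1371, 1575 and 1537 in mutant untreated, a change of -0.20 (adjusted p = 1). The regulators had mutant changes between -0.11 and 0.16. SREBF1 read 441, 865 and 793 in mutant with tetracycline, against 609, 594 and 595 in mutant untreated, and the treated arrays lay on both sides.

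**Figure D2:**
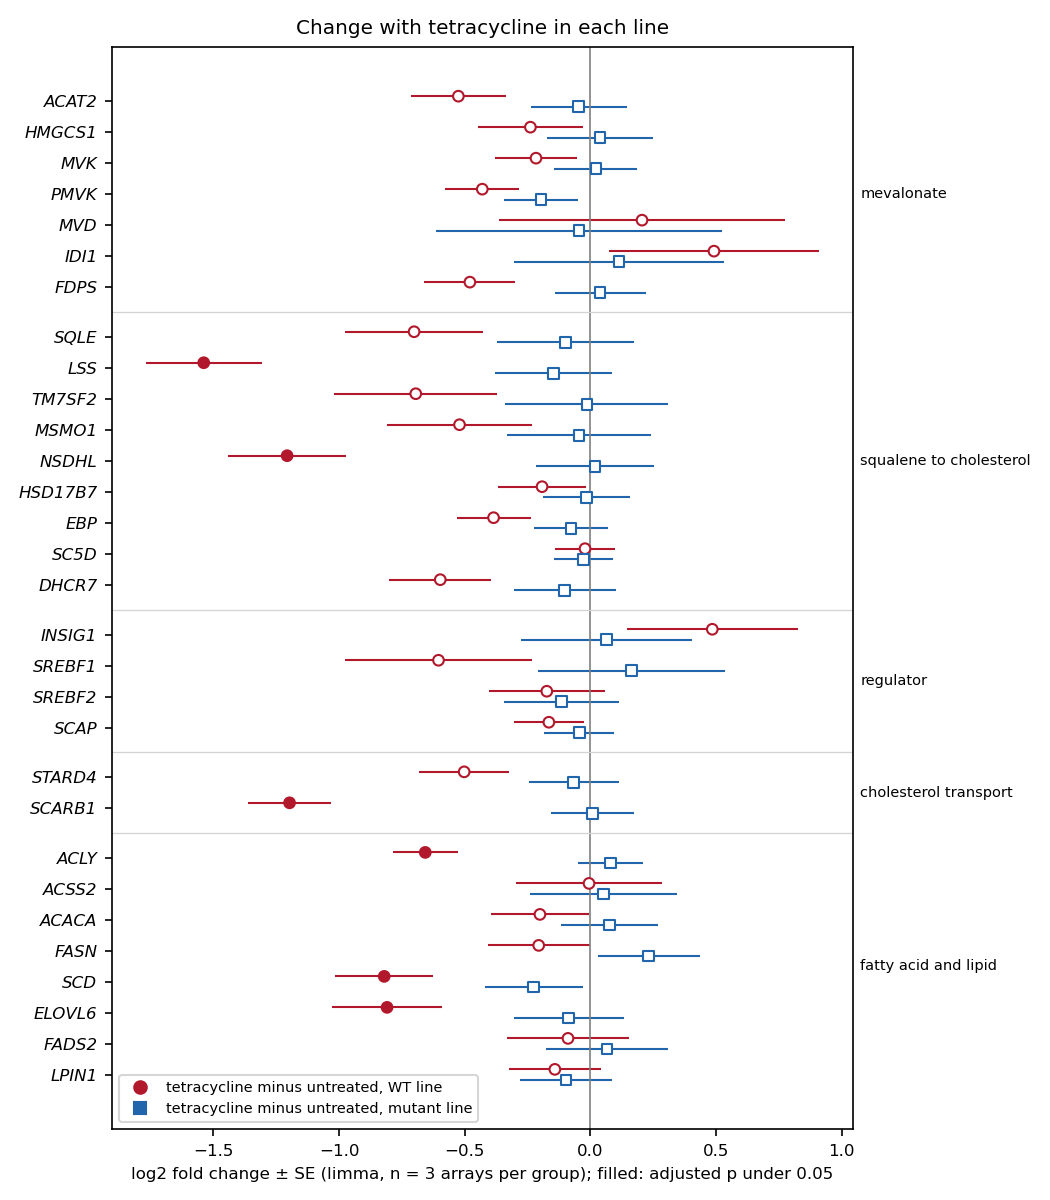
The log2 change with tetracycline minus untreated (horizontal axis, ± SE, limma, 3 arrays per group) is drawn for the 30 genes in WT cells (circles) and mutant cells (squares), with filled symbols for an adjusted p under 0.05. LSS at -1.54 was lowest in the WT line, and all squares lay between -0.23 and 0.23.

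The test of whether the WT change differed from the mutant change passed for 0 of the 30 genes, against 0.145% of all genes tested. The nearest was SCARB1, with a difference of -1.21 ± 0.23 (WT change minus mutant change, adjusted p = 0.0569). LSS followed with -1.39 ± 0.33 (adjusted p = 0.0891), ACLY with -0.74 ± 0.18 (adjusted p = 0.099) and NSDHL with -1.23 ± 0.33 (adjusted p = 0.122). The median difference of the 30 genes was -0.37, against 0.01 for all genes. An unadjusted p under 0.05 was found for 6 of the 30, against 1991 of the 13067 genes tested. The count of genes that passed the adjusted threshold became 5 without WT tetracycline replicate 1, namely ACLY, ELOVL6, LSS, NSDHL and SCARB1. It became 2 without WT untreated replicate 1, namely NSDHL and SCARB1.

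Before induction 7 of the 30 genes were lower in WT than in mutant cells past the threshold, and 0 were higher, against 6.82% of all genes lower and 5.84% higher. These were MVD, LSS, TM7SF2, SC5D, SREBF2, FASN and FADS2. MVD was tested only because the mutant line is high, so it had to be lower in WT, and it lost its call in 8 of 22 alternatives. SREBF2 passed narrowly and lost its call in 13 of 23 alternatives, and SC5D kept its call in only 10 of 23. The median difference of the 30 genes was -0.38, against -0.02 for all genes. The actin ratio given above also differed between the lines, while the GAPDH ratio differed by less than its spread. The signal of the 18S ribosomal RNA control differed too. Its log2 mean was 8.832 in WT arrays (7.765 to 9.934) and 7.003 in mutant arrays (6.1 to 7.389), without overlap. The part of RNA integrity or array quality in the differences was not tested.

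TM7SF2, a sterol reductase, read 213, 213 and 486 in WT untreated, against 901, 777 and 760 in mutant untreated, a difference of -1.53 ± 0.32 (SE, WT minus mutant, adjusted p = 0.00806). MVD, a decarboxylase of the mevalonate steps, read 28.6, 64.3 and 124 in WT untreated, against 271, 249 and 259 in mutant untreated, with a fitted difference of -2.09 ± 0.57 (adjusted p = 0.0269). Its WT mean was below the filter on dim signals, so the size of this difference is uncertain and its call describes only that MVD is dim in WT. FASN, at the WT values given above, was at 7638, 7034 and 5278 in mutant untreated, and its difference was -0.91 ± 0.20 (adjusted p = 0.0102). FADS2, a desaturase of polyunsaturated fatty acids, read 446, 683 and 956 in WT untreated, against 1656, 1367 and 1163 in mutant untreated, with a difference of -1.06 ± 0.24 (adjusted p = 0.012).

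LSS at -0.98 ± 0.23 (adjusted p = 0.0134), SREBF2 at -0.74 ± 0.23 (adjusted p = 0.0475) and SC5D at -0.40 ± 0.12 (adjusted p = 0.0373) were the other three. SREBF2 read 1116, 1078 and 944 in mutant untreated, above every WT untreated array. SC5D, a desaturase of the late sterol steps, read 4447, 4668 and 4344 in WT untreated, against 5721, 5725 and 6355 in mutant untreated. Without overlap, 14 of the 30 genes were lower in WT untreated, against 18.5% of all genes, and 1 was higher, ELOVL6 (0.50, adjusted p = 0.152), against 17.1%. The count of 7 was 3 without WT untreated replicate 1, and 2, 3 and 4 without mutant untreated replicate 1, 2 and 3 in turn. TM7SF2 passed in each of these fits.

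With tetracycline in both lines 20 of the 30 genes were lower in the WT line past the threshold and 0 were higher, against 14.9% of all genes lower and 13.3% higher. The median difference was -0.63, against -0.03 for all genes, and 23 of the 30 were lower without overlap, against 21.3% of all genes. By role they were 4 of 7 mevalonate genes, 6 of 9 genes from squalene to cholesterol, 3 of 4 regulators, both transport genes and 5 of 8 fatty acid and lipid genes. MVD, let in by the mutant line alone, is 1 of those mevalonate genes. Without replicate 3 of each group 11 genes passed. On the brightest probe set of each gene LSS differed most, at -2.37 ± 0.23 (adjusted p = 4.34e-05). This put the WT line at 19.3% of the mutant line on that set, while another LSS set was higher in WT past the threshold (0.63). TM7SF2 read 287, 130 and 140 in WT with tetracycline, against 762, 749 and 906 in mutant with tetracycline (-2.21 ± 0.32, adjusted p = 4e-04). NSDHL differed by -1.77 ± 0.23 (adjusted p = 0.000223) and DHCR7, at 1886, 2129 and 2257 in mutant with tetracycline, by -1.06 ± 0.20 (adjusted p = 0.00205).

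Among the regulators SREBF1 differed by -1.77 ± 0.37 (adjusted p = 0.00361), SREBF2 by -0.80 (adjusted p = 0.0194) and SCAP by -0.49 (adjusted p = 0.0172), all lower in WT with tetracycline. SREBF2 read 1124, 856 and 930 in mutant with tetracycline and SCAP 1333, 1482 and 1413, and neither overlapped its WT values. INSIG1 was the exception, at 9402, 8993 and 11628 in mutant with tetracycline, inside the spread of the WT arrays (0.45, adjusted p = 0.347). Of the transport genes SCARB1 differed by -1.41 ± 0.17 (adjusted p = 0.000123) and STARD4 by -0.54 (adjusted p = 0.0381). STARD4 read 2250, 2048 and 1798 in WT with tetracycline, against 3049, 2636 and 3155 in mutant with tetracycline, and the groups did not overlap.

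In the fatty acid group FASN differed by -1.35 ± 0.20 (adjusted p = 0.000459), FADS2 by -1.21 ± 0.24 (adjusted p = 0.00273) and SCD by -1.15 ± 0.19 (adjusted p = 0.000947). FASN read 8198, 9500 and 5901 in mutant with tetracycline, and FADS2 read 553, 631 and 694 in WT with tetracycline, against 1565, 1670 and 1157 in mutant with tetracycline. ACLY differed by -0.86 ± 0.13 (adjusted p = 0.000448) and ACACA, acetyl-CoA carboxylase, by -0.71 (adjusted p = 0.0146), at 975, 1377 and 1324 in WT with tetracycline, against 2157, 2284 and 1588 in mutant with tetracycline. Of the earlier sterol genes MVD differed by -1.84, SQLE, squalene epoxidase, by -1.0, and MVK, PMVK and FDPS by -0.66, -0.59 and -0.61 (adjusted p from 0.00922 to 0.0275). MVK, mevalonate kinase, read 664, 740 and 678 in WT with tetracycline, against 1041, 1187 and 1069 in mutant with tetracycline. SQLE read 3326, 4820 and 6398 in WT with tetracycline, against 9488, 8698 and 9950 in mutant with tetracycline. FDPS, farnesyl diphosphate synthase, read 9347, 9303 and 10166 in WT with tetracycline, against 14986, 14029 and 14800 in mutant with tetracycline. None of these 3 overlapped between the lines. SC5D differed by -0.40 (adjusted p = 0.0227). This comparison shares its WT arrays with the WT induction, and LSS, NSDHL, SCARB1, ACLY and SCD passed in both, while ELOVL6 differed between the lines by -0.23 (adjusted p = 0.471).

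**Figure D3:**
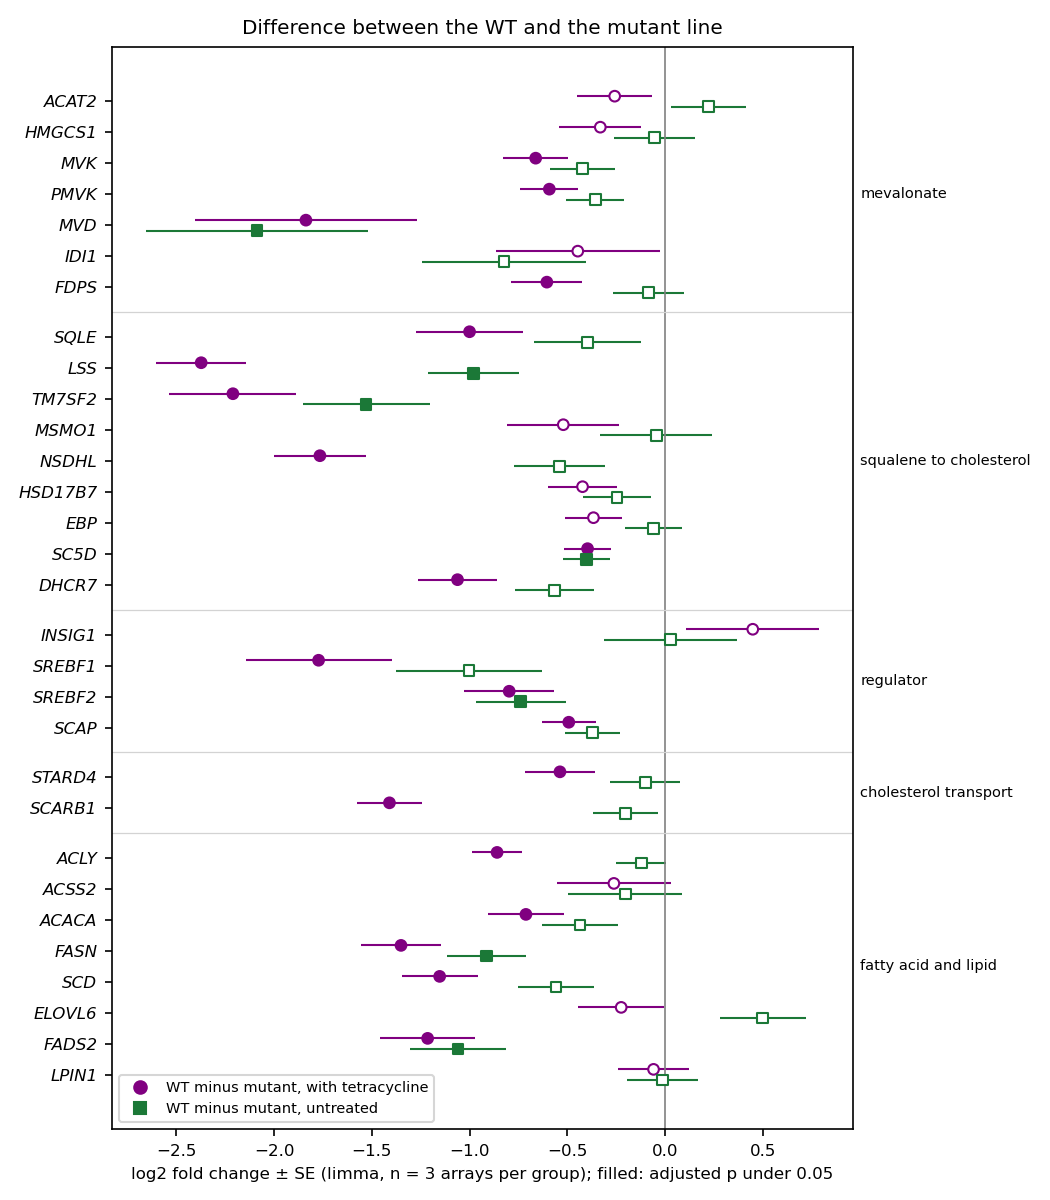
The log2 difference of WT minus mutant (horizontal axis, ± SE, limma, 3 arrays per group) is drawn for the 30 genes with tetracycline (circles) and untreated (squares), with filled symbols for an adjusted p under 0.05. The circles of LSS (-2.37) and TM7SF2 (-2.21) lie lowest, and 20 circles and 7 squares are filled.

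The 3 tested LSS probe sets did not move together. The dimmest, by its mean over all 12 arrays, rose with tetracycline in the WT line, with 316, 363 and 383 in WT with tetracycline, against 141, 139 and 124 in WT untreated (1.39 ± 0.21, adjusted p = 0.000893). The set of middle brightness by that mean read below it there, with 135, 104 and 156 in WT with tetracycline, against 99.1, 165 and 421 in WT untreated (-0.55 ± 0.37, adjusted p = 0.333). In untreated cells the middle set was lower in WT than in mutant cells, with a log2 difference of -2.23 (adjusted p = 0.00216), the brightest gave -0.98, and the dimmest gave -0.39 and did not pass (adjusted p = 0.255). With tetracycline the dimmest set was higher in WT than in mutant cells (0.63, adjusted p = 0.0404), while the brightest (-2.37) and the middle set (-2.72, adjusted p = 0.000262) were lower. The annotation pairs the dimmest and the middle set with the same transcript record, and where the probes of each set lie on LSS was not analysed here.

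Of the 30 genes 18 had at least 2 tested probe sets, and in the WT induction the signs of all sets of a gene were the same for 10 of the 18. NSDHL fell on its other set too (-1.70 ± 0.20, adjusted p = 0.000247), SCARB1 on its second (-1.07, adjusted p = 0.0013), and ACLY on all 3. Of the dim further SCARB1 sets 1 gave -0.84 (adjusted p = 0.172) and another 1.30 (adjusted p = 0.153), and neither passed. The set at 1.30 was tested only through WT with tetracycline, so it had to be higher there. ELOVL6 fell on 2 of 3 sets, and the third gave 0.52 (adjusted p = 0.156). The 3 other SCD sets gave -0.19, -0.14 and -0.10 and did not pass. In untreated cells those SCD sets were lower in WT, by log2 differences of -1.29, -1.84 and -1.63 (adjusted p from 0.00162 to 0.00727), where the brightest gave -0.56 (adjusted p = 0.0729). Likewise the 2 other ACLY sets were lower in WT untreated, at -0.77 (adjusted p = 0.00667) and -1.04 (adjusted p = 0.00435), and the brightest was at -0.12. DHCR7 and EBP fell with tetracycline on another set than the brightest (-1.11, adjusted p = 0.00299, and -0.43, adjusted p = 0.0484). All 3 INSIG1 sets were on the higher side, from 0.49 to 1.21, and did not pass.

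**Figure D4:**
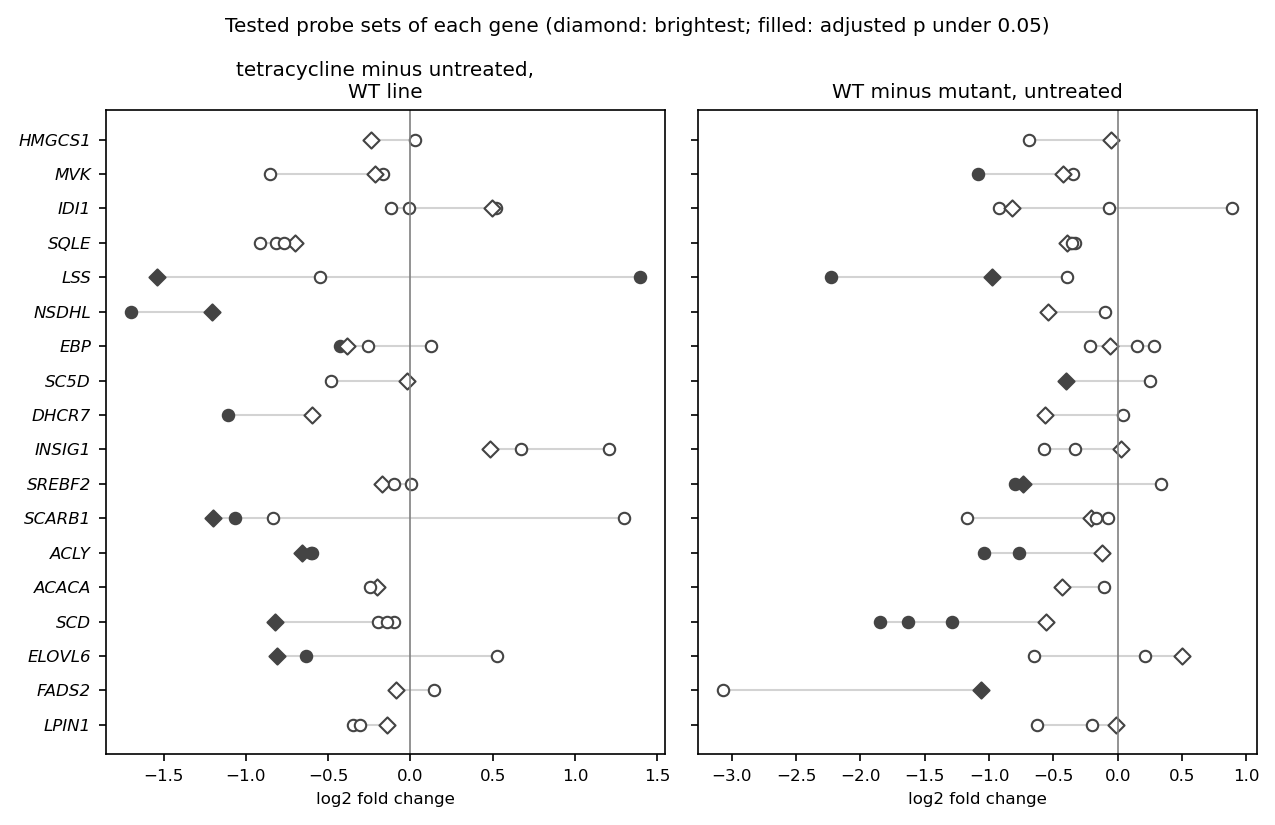
Each point is a tested probe set of the 18 genes with 2 or more, by its log2 change with tetracycline in the WT line (left) and its log2 difference of WT minus mutant in untreated cells (right), with diamonds for the brightest set and filled symbols for an adjusted p under 0.05. LSS has filled sets on both sides of 0 on the left, at -1.54 and 1.39.

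Genes next to these pathways were read from 5 further lists, by the same rule of 1 probe set per gene, in the WT induction, in which 9.41% of all genes rose and 8.57% fell. Counts near those shares say nothing particular of a list. Of 11 genes of cholesterol transport and storage 2 rose and 1 fell. NPC1 and NPC2, which move cholesterol out of lysosomes, rose by 0.96 ± 0.15 (adjusted p = 0.00113) and 0.68 ± 0.17 (adjusted p = 0.0129), and TMEM97, a sterol-responsive membrane protein, fell by 0.72 ± 0.13 (adjusted p = 0.00205). ABCG1, a sterol exporter, gave 1.17 (adjusted p = 0.0607). Of 7 genes that process, degrade or otherwise regulate the SREBP machinery 0 passed, and 4 were on the higher side, with a median of 0.21. RNF139, a ubiquitin ligase of the endoplasmic reticulum, gave 0.35 (adjusted p = 0.148), the protease genes MBTPS2 and MBTPS1 gave -0.49 and -0.31, and INSIG2 gave -0.22. Of 9 genes of other isoprenoid branches 1 rose and 1 fell. These were PDSS2 (0.58, adjusted p = 0.0337) and PDSS1 (-1.13, adjusted p = 0.00778), the subunits of the enzyme that makes the tail of coenzyme Q. Of 15 other genes of fatty acid synthesis and activation only the elongase ELOVL5 passed (-0.41, adjusted p = 0.0497). Of 13 fatty acid oxidation genes 1 rose, ACADVL (1.05 ± 0.16, adjusted p = 0.000975), and 2 fell, HADH (-1.31 ± 0.25, adjusted p = 0.00303) and HADHB (-0.45, adjusted p = 0.0216). These 3 enzymes act in the breakdown of fatty acids in mitochondria.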

How the data were processed

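Total RNA was measured on 12 Affymetrix arrays, 3 in each of 4 groups. The deposited values are MAS5 signals, a linear intensity, as the submitters' processing notes name the tool, and its version and settings are not given in the sources used here. The mean after trimming 2% at each end was 500.06 to 500.07 on all arrays, so the authors had scaled the arrays to 1 mean. Signals under 1 (0.337% of values) were set to 1 and log2 was taken. Of 54675 probe sets, 62 controls were left out, and 29553 were tested because a group mean exceeded the median of the whole table, 6.39 on the log2 scale. By the platform annotation 41091 probe sets name 1 gene, 1801 several and 11721 none.

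Group means were fitted in R 4.3.3 by limma 3.58.1 (eBayes, variance trend on), and p-values were adjusted over all tested probe sets within each contrast, 2-sided, at 0.05. Shares of all genes are over the 13067 genes with a tested brightest probe set. The fit was run on simulated data with independent arrays and the same spread in all groups. That check could not show the effect of the wider scatter of the WT line or of correlated arrays. Precision is limited by the number of arrays. The 30 genes could all be named; per-array values were given for those that passed in a contrast, for each LSS probe set, for the regulators and for genes without overlap in both inductions, and other genes by range. DHCR7 and IDI1 in the WT induction were added to these after their values were seen. From each further list up to 4 genes with the smallest p in the WT induction were named. The genes and lists were chosen with earlier results of these data known. Figures were drawn with matplotlib 3.10.9. The alternatives tried were other filters, an offset of 16, quantile normalization, no variance trend, array weights, other probe set rules, a replicate block and leaving out arrays.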

Additional observations from a re-analysis of the deposited data

How the results depend on the processing

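The counts of genes past the threshold, 6 in the WT induction, 0 in the difference of inductions, 7 between untreated lines and 20 between lines with tetracycline, moved with the arrays included. Leaving out replicate 3 of each group, they were 1 (SCARB1), 0, 4 and 11, and with array weights 14 (1 up), 4, 8 and 22. With 1 array left out they ran from 4 to 13, 0 to 5, 2 to 10 and 14 to 21. With the most variable probe set per gene the WT count was 3, and without a variance trend the untreated count was 4. The difference of inductions had 1 call, SCARB1, with a stricter filter and with the offset. The mutant induction gave 0 throughout. The median WT change was -0.26 with the mean of all probe sets and from -0.51 to -0.23 with 1 array left out. The median difference of inductions was -0.23 and from -0.56 to -0.26 in the same fits. The untreated median was -0.57 with the most variable set and from -0.44 to -0.26 with 1 array left out. With the most variable set SCARB1 turned to 1.30 in the WT induction and 0.40 between lines with tetracycline, and SC5D to 0.25 between untreated lines. That SCARB1 set passed the filter on dim signals only through WT with tetracycline, so it had to be higher there. Without the replicate 3 arrays the brightest LSS set gave -1.17 (adjusted p = 0.0612) and the dimmest 1.28 (adjusted p = 0.0582), and the middle set ran from -1.02 (adjusted p = 0.0477, without WT untreated replicate 1) to 0.0243 with 1 array left out. The cause was not tested. Over all alternatives, the calls of single genes were kept in 117 and lost in 20 cases in the WT induction. They were kept in 120 and lost in 39 between untreated lines, and kept in 409 and lost in 49 between lines with tetracycline. In each of these comparisons 1 further case was reversed in sign. Some of the alternatives left out 1 array of a group outside the comparison. That cannot alter a gene's change, only its estimated spread. In the WT induction each fit without a mutant array kept all 6 calls, so the kept cases overstate how firm the calls are. Same-numbered arrays of different groups correlated by -0.005 to 0.253 in their deviations, 4 of 18 pairs over 0.1, and 8 of 12 arrays correlated best with their own number, a hint from the data and not the design. In the WT line the 3 pairs gave 0.253, 0.24 and 0.042, and in the mutant line 0.137, 0.026 and 0.21. All 4 pairs over 0.1 were thus within a line. The log2 18S signal also followed the number in the WT line. It was 8.499, 9.934 and 7.866 on replicates 1 to 3 with tetracycline, and 9.012, 9.914 and 7.765 untreated. The main fit took no pairs because the labels tie the numbers to nothing shared and not every pair was over 0.1. The replicate block joins both lines by number, and a block within each line was not tried. With a replicate block the counts were 8, 0, 9 and 21, and 0 in the mutant induction, and DHCR7 and SQLE were the 2 added in the WT induction.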
